A study of Mus musculus with 33 samples.

Results

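The comparison between e-cigarette aerosols without nicotine and filtered air, in the sequencing run whose sample titles carry no M, comprised 11 of the 33 RNA-Seq libraries of the series. These were 6 air exposed controls (numbered 1 to 6) and 5 offspring exposed without nicotine (numbered 1 to 5), chosen by the titles of the columns in a table of raw read counts. All 11 were labelled female C57BL/6 offspring of about 1 month of age, and the tissue was labelled frontal cortex. The dams breathed either filtered air or the aerosol of an e-cigarette liquid free of nicotine during gestation, and the same exposure was continued for dams and pups together in the nursing period, so the pups were exposed both through the dam and directly. The same run held 5 libraries from offspring exposed to aerosols with nicotine (liquid of 13 to 16 mg/mL), which were fitted together with these 11. All samples labelled male were sequenced in the other run, so that sex and sequencing run cannot be told apart.

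The frontal cortex of the mouse consists of excitatory projection neurons in layers, which release glutamate, and of inhibitory interneurons, which release GABA, together with oligodendrocytes, astrocytes, microglia and vessels. At the age studied, oligodendrocytes are wrapping axons in myelin and cortical synapses are still maturing. Acetylcholine reaches the cortex mainly by axons of neurons whose cell bodies lie in the basal forebrain, below the cortex, and whose messenger RNA is therefore mostly found there. The striatum, hypothalamus and thalamus are other deep regions with marker genes of their own.

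Aerosols without nicotine were accompanied by a broad and mostly modest change in transcript levels when compared to air exposed controls. Most marker genes of excitatory cortical neurons and many genes of synapses and ion channels were lower, whereas most genes of myelin, those of basal forebrain cholinergic neurons and some of other deep regions were higher. Of 15158 genes tested among the 23366 in the table, 1829 (12.1%) passed an adjusted p of 0.01 in edgeR's quasi-likelihood test, 763 of them higher (5.03%) and 1066 lower (7.03%). The median absolute log2 fold change of the called genes was 0.42, and 1096 of them changed by less than 0.5 on the log2 scale. More than a 2-fold increase was found for 117 genes and more than a 2-fold decrease for 91. The median log2 fold change of all genes tested was 0.01. The shares of 5.03% higher and 7.03% lower are the background for the counts of every list below. The groups did not overlap for 1617 of all genes tested (10.7%), and for 1140 of the called genes (62.3%).

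Total counts per library were 22184221 to 27513174 in air and 19684173 to 24920733 without nicotine (exact two-sided permutation p = 0.522). The levels are CPM, counts scaled to a common library size after TMM normalization. Y-linked genes had 0 to 3 counts per library and Xist was at 119 to 147 CPM in all 11, which fits their female labels. On the first principal component, which held 46.8% of the variance, no nicotine 1 was nearest to the air libraries at a score of -1.13, the air libraries lay between -26.3 and -5.37, and no nicotine 2 to 5 lay between 16.3 and 36.5. The number of called genes fell to 823 without no nicotine 2, to 843 without no nicotine 3, to 1047 without no nicotine 5 and to 1078 without air 6. Counting error is small at these depths, and the p-values measure the spread between pups, each from its own litter according to the study's methods. The same methods describe separate exposure chambers for the treatments, so chamber and treatment cannot be told apart.

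Excitatory cortical neurons had the highest share of lower calls among the 18 marker lists. Of 12 genes that mark them irrespective of layer, 11 were called lower and 0 higher, with a median log2 fold change of -0.91, beside 7.03% called lower among all genes. All 12 were detected in every library, as the tissue label implies. Slc17a7, the vesicular glutamate transporter of cortical neurons, had 2172 to 2816 CPM (median 2520) in air, and 2142, 835, 961, 1680 and 1322 CPM in no nicotine 1 to 5. The groups did not overlap, but no nicotine 1 came close to the lowest air library. The change was -0.86 ± 0.18 (log2, SE, adjusted p = 0.00335 by edgeR).

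The transcription factors Neurod2, Tbr1, Mef2c and Bhlhe22 were lower as well. Neurod2, which drives maturation of cortical neurons, was lower without nicotine, at 35.5 ± 9.78 CPM (SD, n = 5) against 66.9 ± 11.6 CPM in air (SD, n = 6), as was Mef2c, an activity-regulated factor, at 437 ± 112 against 822 ± 106 CPM (SD, same n). Tbr1, which specifies deep-layer identity, was at 149 to 213 CPM in air and at 155, 58.5, 72.9, 115 and 101 CPM without nicotine, so that no nicotine 1 lay within the air range. Bhlhe22 was at 44.3 ± 5.18 against 69.6 ± 10.1 CPM (SD, same n). The member that was not called was Slc30a3, the zinc transporter of glutamate vesicles, with a log2 fold change of -0.48. Without no nicotine 2, 3 or 5, the class had 5, 4 and 5 called members, and its median stayed between -1.07 and -0.80 over the 11 fits that each left out 1 library.

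Markers of single cortical layers did not move as a block. In the upper-layer list 3 of 12 genes were lower, namely Rorb (log2 fold change -0.63), Cux2 (-0.52) and Rasgrf2 (-0.30), while Mdga1 was higher (0.41). In the deep-layer list Sox5 (-0.56) and Cplx3 (-1.11) were lower and Foxp2 (0.78) and Nxph4 (1.00) were higher, with 10 of 14 genes not called. The medians were -0.24 and 0.14. Cplx3 passed in 2 of the 11 fits that each left out 1 library, and Cux2 and Rasgrf2 in 4 each. The upper-layer list had 2 called genes without air 2, air 6 or no nicotine 2 and 1 without no nicotine 3 or 5, and the deep-layer list had 2 called genes without no nicotine 2, 3 or 5.

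Promoters of excitatory and myelin genes that moved together were read from RefSeq (build GRCm38.p6), and 4 are shown as examples of the regulatory sequence next to these genes. The windows counted run from 250 bases before to 50 bases after each start, and those printed are the 250 bases before it. The capitals mark CAGATG, an E-box that NEUROD factors bind, and ACAAAG, a site of SOX factors such as SOX10, each searched on both strands, so that capitals may show the reverse complement.
Neurod2 (chr11:98329646-98329895, minus strand): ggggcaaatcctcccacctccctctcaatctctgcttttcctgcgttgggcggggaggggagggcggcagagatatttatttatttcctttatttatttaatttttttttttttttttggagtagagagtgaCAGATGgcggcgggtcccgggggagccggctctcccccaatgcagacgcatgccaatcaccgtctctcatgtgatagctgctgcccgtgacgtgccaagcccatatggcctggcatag
Nrgn (chr9:37552746-37552995, minus strand): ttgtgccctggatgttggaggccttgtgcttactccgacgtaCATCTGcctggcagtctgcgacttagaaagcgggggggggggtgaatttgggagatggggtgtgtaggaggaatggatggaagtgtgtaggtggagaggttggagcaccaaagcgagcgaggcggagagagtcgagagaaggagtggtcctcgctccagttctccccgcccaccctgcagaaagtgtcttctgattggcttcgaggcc
Mobp (chr9:120149492-120149741, plus strand): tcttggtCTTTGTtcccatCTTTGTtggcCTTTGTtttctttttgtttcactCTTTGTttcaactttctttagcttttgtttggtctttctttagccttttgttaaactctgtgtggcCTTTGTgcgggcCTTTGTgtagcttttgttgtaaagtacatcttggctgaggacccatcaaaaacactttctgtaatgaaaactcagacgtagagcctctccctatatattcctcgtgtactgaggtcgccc
Cnp (chr11:100574689-100574938, plus strand): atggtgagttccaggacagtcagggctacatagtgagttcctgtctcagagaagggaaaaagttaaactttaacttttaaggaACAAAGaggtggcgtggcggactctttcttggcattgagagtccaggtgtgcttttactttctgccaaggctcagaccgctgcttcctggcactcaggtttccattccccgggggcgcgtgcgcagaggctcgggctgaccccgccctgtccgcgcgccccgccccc
CAGATG was found for 3 of the 9 excitatory genes with a promoter in the table (in 25.0% of their windows, and in 17.1% of all 32851 windows). ACAAAG was found for 6 of 15 myelin genes (in 38.1% of their windows, and in 18.7% of all), and Mobp held 6 matches.

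**Figure D1:**
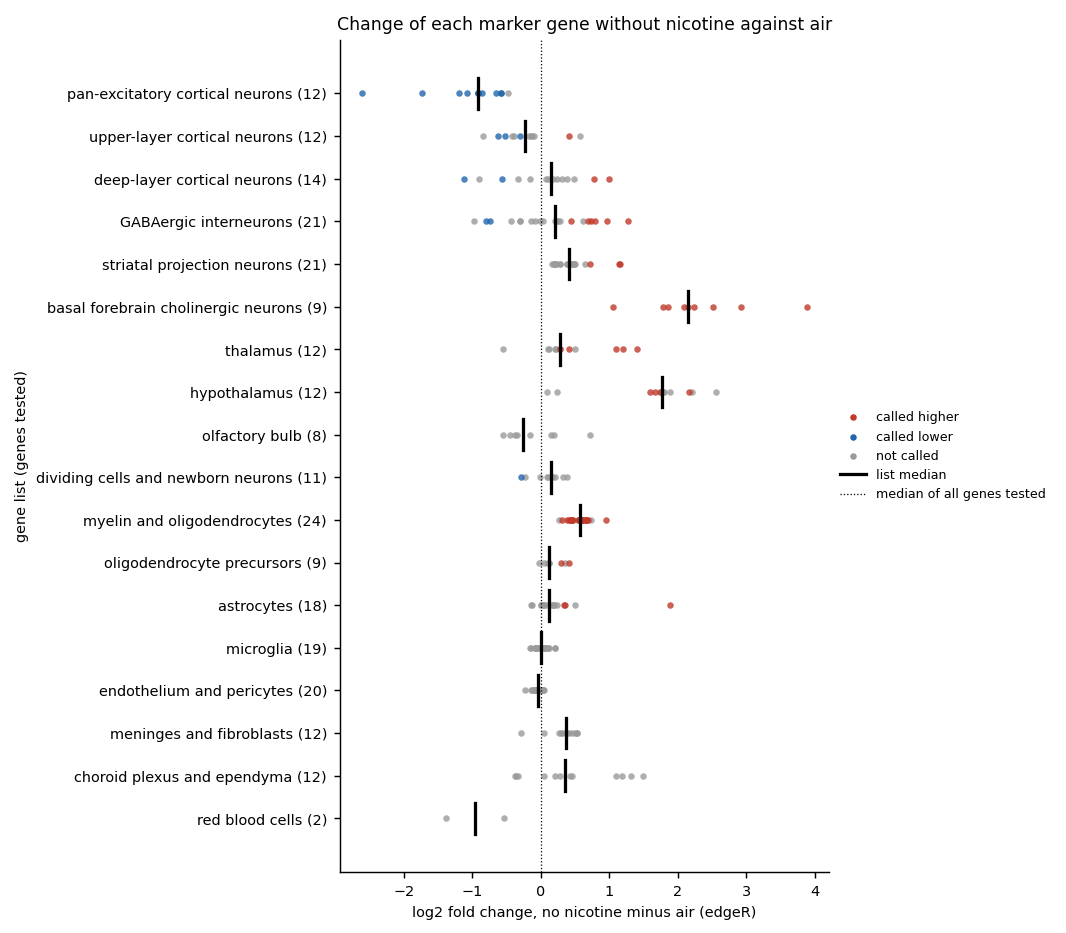
Log2 fold change without nicotine against air (x axis, edgeR) of each tested gene of the 18 marker lists (rows, with the number of genes tested). Red and blue points were called higher and lower, grey points were not called, and the thick black line is the list's median. The points of pan-excitatory neurons lie left of 0, those of cholinergic neurons, myelin and striatal projection neurons right of it, and those of microglia and endothelium close to it.

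Basal forebrain cholinergic genes had the highest median of the 18 marker lists. All 9 were called higher and did not overlap between the groups, with a median log2 fold change of 2.15, beside 5.03% called higher among all genes. Chat, which makes acetylcholine (chromosome 14, 33221389 to 33279095 in mm9), had 1.48 to 6.17 CPM (median 4.08) in air and 10.4, 19.5, 24.1, 14.0 and 20.97 CPM in no nicotine 1 to 5. Every exposed library was above every air library, and no nicotine 1 was the lowest of its group. The change was 2.15 ± 0.28 (log2, SE, adjusted p = 0.000802 by edgeR).

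The vesicular transporter Slc18a3, whose gene is known to lie inside the Chat locus, and the choline transporter Slc5a7 rose with it. Slc18a3 was higher without nicotine, at 33.9 ± 10.5 CPM (SD, n = 5) against 7.91 ± 3.37 CPM in air (SD, n = 6) and Slc5a7 was at 80.7 ± 27.3 against 23.3 ± 8.72 CPM (SD, same n). Ngfr, the low-affinity receptor of nerve growth factor that basal forebrain cholinergic neurons keep in the mature brain, had 1.96 to 10.2 CPM (median 6.77) in air and 19.9, 54.9, 64.7, 33.8 and 57.0 CPM in no nicotine 1 to 5. These genes rank the exposed libraries in a similar order, with libraries 2, 3 and 5 high and 1 and 4 lower.

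Gbx1 and Lhx8, transcription factors of developing basal forebrain neurons, had log2 fold changes of 2.52 and 2.24. Gal, which encodes the neuropeptide galanin, had the largest log2 fold change of all called genes, 3.88 ± 0.57 (SE, adjusted p = 0.000841 by edgeR), on 2 to 74 counts per library, so that this value depends on the prior count. Ache, which degrades acetylcholine and is also made by other neurons, rose by 1.05. Slc10a4, a vesicle protein of cholinergic and monoaminergic neurons, was among the 10 increased genes with the smallest p (log2 fold change 1.75), and 20.03% of the 50-base windows of its transcript occur in other coding transcripts. Per kilobase of exon, Chat rose from 1.42 to 6.33 RPKM while Slc17a7 fell from 858 to 472, so the cholinergic genes remained low in level.

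The summed level of the cholinergic list was 63.8 to 150 CPM in air, and 186, 401, 441, 268 and 396 CPM in no nicotine 1 to 5. The summed level of the pan-excitatory list was 10010 to 13090 CPM in air, and 9356, 4730, 5484, 7220 and 5961 CPM in the same order. No nicotine 2, 3 and 5 thus had the lowest excitatory and the highest cholinergic sums, and no nicotine 1 was the nearest to air in both. In bulk tissue, fewer cells of a type and less RNA per cell cannot be told apart.

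**Figure D2:**
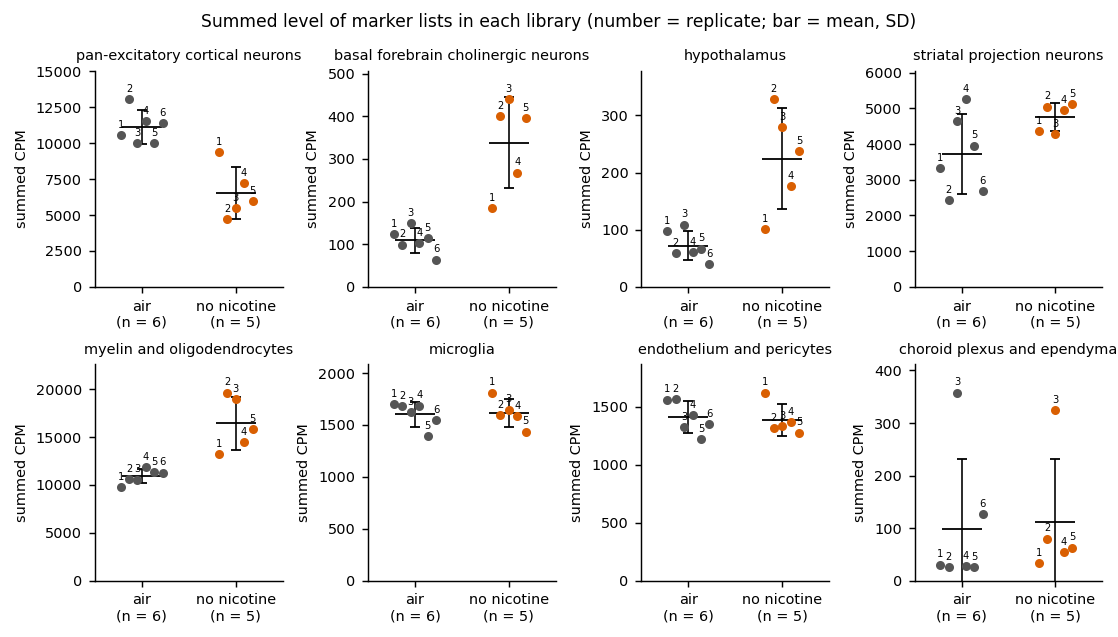
Summed CPM (y axis) of 8 marker lists in each of the 6 air libraries (grey) and the 5 libraries without nicotine (orange). The small numbers are the replicates, and the bars are the mean and SD, cut at 0 where the SD passes it. Pan-excitatory sums were 4730 to 9356 CPM without nicotine, below all air libraries, and cholinergic sums were 186 to 441 CPM, above all of them, while choroid plexus sums were highest in air 3 and no nicotine 3.

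Markers of other deep regions were higher too, in part. In the hypothalamus list 4 of 12 tested genes were called, all higher, and the list's median was 1.77. The called genes were Ecel1, an endopeptidase (18.0 ± 5.66 CPM in air, SD, n = 6, and 57.3 ± 18.8 CPM without nicotine, SD, n = 5), Nkx2-1, a factor that patterns the ventral forebrain (log2 fold change 2.16), Dlk1 (1.74) and Baiap3 (1.59). The summed list was 39.8 to 109 CPM in air and 101, 329, 279, 176 and 237 CPM in no nicotine 1 to 5, so no nicotine 1 overlapped with air. Among the peptides of the hypothalamus in the list, Trh had 1.88 to 5.40 CPM in air and 4.44 to 32.9 CPM without nicotine (log2 fold change 1.89, edgeR adjusted p = 0.0102), just outside the threshold. Gnrh1, Oxt and Avp were at lower levels, of at most 1.79, 5.30 and 6.78 CPM in any library, with log2 fold changes of 2.56, 2.21 and 1.76 that did not pass and with overlap between the groups, and Pomc (0.23) did not pass either. Trh, Gnrh1, Avp and Pomc were named after their values were seen. Agrp, Hcrt and Pmch had at most 12 counts. The list had 3 called genes without air 4, 5 or 6 or no nicotine 2, 3 or 5 and 6 without no nicotine 1 or 4, and Baiap3 passed in 4 of these 11 fits.

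All 21 striatal genes had a positive log2 fold change (median 0.41), but only Six3 (1.14), Isl1 (1.16) and Tac1 (0.72) were called. The striatal sums overlapped, at 2427 to 5266 CPM in air and 4273 to 5126 CPM without nicotine. Drd1a, the dopamine receptor of the direct pathway, had 80.8 ± 27.9 CPM (SD, n = 6) in air and 111 ± 19.1 CPM (SD, n = 5) without nicotine, and did not pass (edgeR adjusted p = 0.0996). In the thalamus list 5 of 12 genes were higher, among them Tcf7l2 (8.55 to 15.1 CPM in air, and 17.8, 27.8, 29.3, 23.5 and 28.3 CPM without nicotine), Zic1 (1.20) and Gbx2 (1.40). The other 7 genes were not called, 1 gene of the list had a negative log2 fold change (-0.55), and the list's median was 0.28. The thalamus list had 3 called genes without no nicotine 3, and the striatal list 1 without air 2, 5 or 6 or no nicotine 2 or 5. None of the 8 olfactory bulb genes was called by edgeR, and their median was -0.26, which turned to 0.19 without air 5.

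The cholinergic, hypothalamic and thalamic sums were highest in no nicotine 2, 3 and 5, the libraries in which the excitatory sum was lowest. The striatal sums did not follow this order, and no nicotine 3 had the lowest of its group (4273 CPM). The part of the region markers in the other changes was not tested. The covariate tried was the level of the cortical neurons instead. With the mean log2 CPM of the 12 pan-excitatory genes in each library added to the fit, 0 genes were called by edgeR (822 at an unadjusted p below 0.05), against 1829 (5524 unadjusted) without it. The score was 7.32 to 7.77 in air and 5.91 to 7.10 without nicotine, with no overlap, so the score and the exposure cannot be told apart in these 11 libraries.

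Inhibitory neurons showed opposite changes among their genes. Of 21 genes 6 were higher and 2 lower. The general GABA genes Slc32a1 (vesicular transporter), Gad2 and Gad1 (GABA synthesis) were higher, by 0.74, 0.79 and 0.44 on the log2 scale. Gad2 had 219 to 374 CPM (median 304) in air and 362, 603, 528, 480 and 565 CPM in no nicotine 1 to 5, where only library 1 was within the air range. Lhx6, a factor of interneurons from the medial ganglionic eminence, was higher (0.97), and so was Calb2 (1.27).

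The peptide genes Vip and Npy of cortical interneurons were the 2 lower members. Vip had 29.7 to 39.7 CPM (median 30.98) in air and 26.6, 16.8, 15.2, 19.4 and 17.5 CPM without nicotine, with no overlap (-0.80 ± 0.13, log2, SE, adjusted p = 0.000969 by edgeR), and Npy fell by 0.74. Sst, the peptide of another interneuron class, was at 175 ± 11.7 CPM (SD, n = 6) in air and 165 ± 26.2 CPM (SD, n = 5) without nicotine, and Pvalb at 41.2 ± 14.3 and 30.3 ± 4.46 CPM (SD, same n). Both were not called. Without no nicotine 2 or 3, or without air 6, 5 of the 21 genes were called.

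Myelin genes rose together. Of 24 genes of myelin and oligodendrocytes, 22 were called higher and 0 lower, beside 5.03% called higher among all genes. Between the groups 20 did not overlap, beside 10.7% of all genes, and the median log2 fold change was 0.57. Mbp, a major myelin protein, had 3946 to 4830 CPM (median 4426) in air and 5382, 7696, 7574, 5982 and 6577 CPM in no nicotine 1 to 5. All 5 exposed libraries were above the air controls, and libraries 2 and 3 were the highest. The change was 0.59 ± 0.093 (log2, SE, adjusted p = 0.000841 by edgeR).

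Mobp, a second structural protein of myelin, was higher without nicotine, at 619 ± 135 CPM (SD, n = 5) against 384 ± 36.1 CPM in air (SD, n = 6). Nkx6-2, a transcription factor of oligodendrocytes, had 9.81 to 12.1 CPM (median 10.3) in air and 14.6, 24.1, 23.4, 19.8 and 20.5 CPM without nicotine. It overlaps Inpp5a on the opposite strand, whether counting used the strand is not given in the sources used here, and 10.7% of its 50-base windows occur in other coding transcripts. Trf, the iron carrier that oligodendrocytes make, rose by 0.55. The members that were not called were Klk6 (0.73) and Opalin (0.27).

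Of 9 genes of oligodendrocyte precursors, C1ql1 (0.29) and Lhfpl3 (0.41) were called, the median was 0.12, and Pdgfra, their defining receptor, was at 152 ± 16.9 CPM (SD, n = 6) in air and 163 ± 11.3 CPM (SD, n = 5) without nicotine. The difference between both lists was not tested. Without air 2, 4, 5 or 6 or no nicotine 2, 4 or 5 the precursor list had 1 called gene, and 0 without no nicotine 3. Adamts4 and Hapln2, matrix genes that oligodendrocytes express, were the 2 higher genes of the list of brain matrix and perineuronal nets (0.52 and 0.55), in which Tnr (-0.30) and Spock1 (-0.26) were lower. This matrix list had 2 called genes without air 3 or 5 or no nicotine 2, 4 or 5.

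Astrocyte genes included some that were called, whereas those of microglia, vessels and meninges did not. Of 18 astrocyte genes 3 were higher (16.7%, beside 5.03% of all genes), namely Agt, Slc4a4 (log2 fold change 0.36) and Ntsr2 (0.34), and 0 lower, and the median was 0.12, with 16 of positive sign. Agt, the precursor of angiotensin, which astrocytes of deep brain regions make more than those of the cortex, had 23.3 to 73.6 CPM (median 37.4) in air and 82.7, 224, 237, 138 and 149 CPM in no nicotine 1 to 5, with a change of 1.88 ± 0.34 (log2, SE, adjusted p = 0.00145 by edgeR). All 5 exposed libraries were above the air range, and no nicotine 1 was the lowest of them. Without no nicotine 2 or 3 the astrocyte list had 1 called gene. Gfap, which marks reactive astrocytes and those of white matter, was at 241 ± 62.9 CPM (SD, n = 6) in air and 340 ± 21.7 CPM (SD, n = 5) without nicotine and did not pass (edgeR adjusted p = 0.0181).

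None of 19 microglial genes (median 0.00, edgeR adjusted p = 0.0399 for the lowest, Ly86), of 20 endothelial and pericyte genes (median -0.05), of 12 genes of meninges (median 0.37), of 12 genes of choroid plexus and ependyma (median 0.36) or of 2 genes of red blood cells was called. Cx3cr1, the fractalkine receptor of microglia, had 152 ± 11.7 CPM (SD, n = 6) in air and 149 ± 15.6 CPM (SD, n = 5) without nicotine. Ttr, the carrier protein that the choroid plexus secretes, had 268 CPM in air 3 and 219 CPM in no nicotine 3. The next highest air value was 87.2 CPM and the air median 1.89 CPM, and the other libraries without nicotine had at most 5.79 CPM. Without no nicotine 3 the median of the choroid plexus list, which holds Ttr, was -0.036. Only Sox4 was called, lower (-0.30), of 11 genes of dividing cells and newborn neurons, and without no nicotine 2 none of them was called by edgeR.

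**Figure D3:**
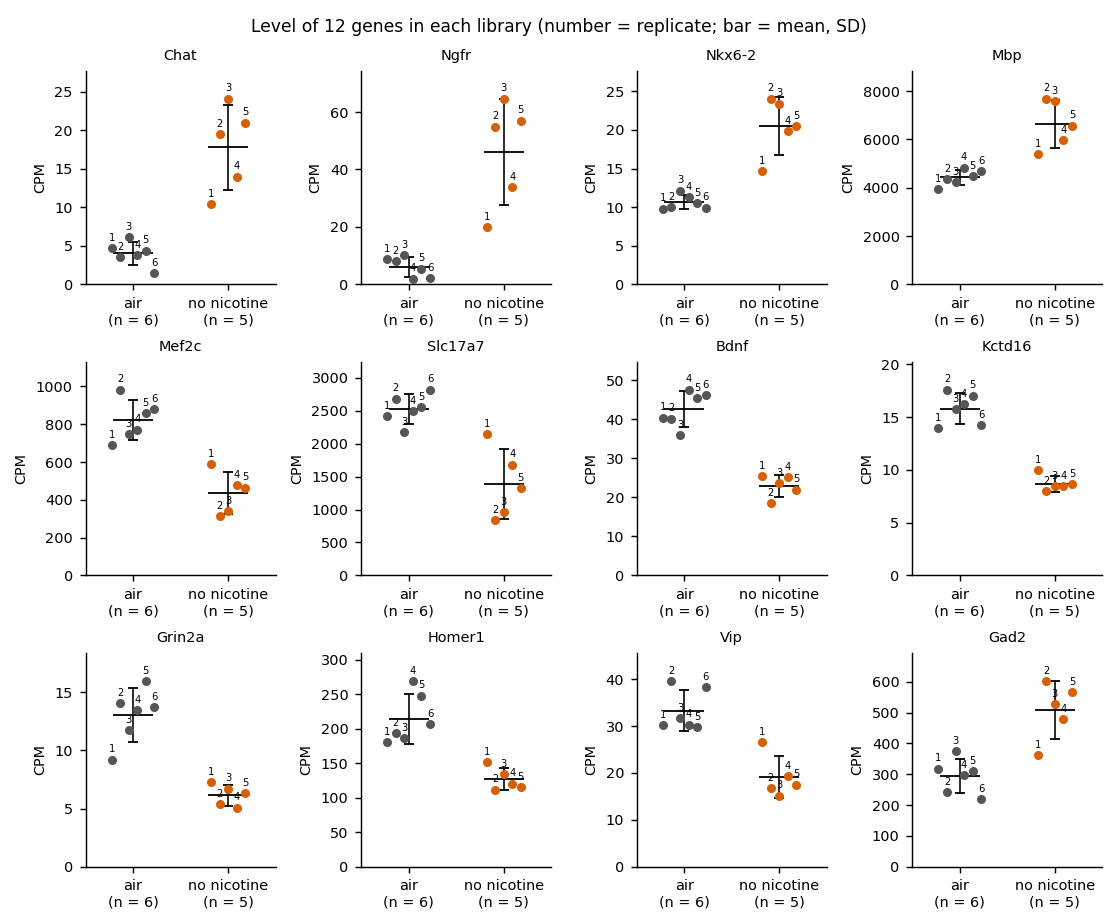
CPM (y axis) of 12 genes in each of the 6 air libraries (grey) and 5 libraries without nicotine (orange). The small numbers are the replicates, and the bars are the mean and SD, cut at 0 where the SD passes it. In the panels of Chat, Ngfr, Nkx6-2 and Mbp the exposed libraries lie above all air libraries, in those of Mef2c, Slc17a7, Bdnf, Kctd16, Grin2a, Homer1 and Vip below them, and in that of Gad2 only no nicotine 1 (362 CPM) lies within the air range.

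The genes with the smallest p included several of unlike function. Kctd16, a subunit that fine-tunes GABA-B receptors, had 14.0 to 17.6 CPM (median 16.0) in air and 9.98, 7.995, 8.46, 8.43 and 8.67 CPM in no nicotine 1 to 5. The exposed libraries were tightly grouped below the air range, with a change of -0.86 ± 0.092 (log2, SE, adjusted p = 0.000388 by edgeR). The unnamed transcript 2900055J20Rik, which ends just before Kctd16 on the same strand, was lower without nicotine, at 2.97 ± 0.32 CPM (SD, n = 5) against 5.93 ± 0.527 CPM in air (SD, n = 6). Mtmr12, which supports a lipid phosphatase, Pgm2l1, which makes glucose 1,6-bisphosphate, Car10, Tecpr2, Hivep3, N28178 and the potassium channel gene Kcnj9 followed among the lower genes, with log2 fold changes between -0.74 and -0.33.

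Among the higher genes with the smallest p, Mob3b, a kinase activator, was higher without nicotine, at 17.2 ± 1.12 CPM (SD, n = 5) against 12.1 ± 0.923 CPM in air (SD, n = 6). Kazn (0.38), the peptidase gene Apeh (0.56), Tmem91 (0.75) and the receptor adaptor Frs3 (0.58) were higher as well, and Frs3 overlaps annotated genes on both strands. Beside Gal, Ngfr and Gbx1, the largest increases at 1 CPM or more were those of Cckar, a cholecystokinin receptor (2.84, on 2 to 164 counts per library), and 4921525O09Rik (2.59). Among the largest decreases were those of Ovol2 (-3.22, on 3 to 121 counts), Hkdc1 (-2.58) and Tcap (-2.55). All of these genes were without overlap between the groups.

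Genes of both sides of the synapse were called lower more often than higher. Of 32 genes of transmitter release 14 were lower and 2 higher (median -0.21), and of 20 genes of the postsynaptic density and plasticity 11 were lower and 0 higher (median -0.44). Of all genes 7.03% were called lower and 5.03% higher. Sv2b, a vesicle protein of glutamatergic terminals, was lower without nicotine, at 411 ± 115 CPM (SD, n = 5) against 729 ± 119 CPM in air (SD, n = 6), Syn1, which tethers vesicles, was at 602 ± 73.1 against 804 ± 54.5 CPM (SD, same n), and Rims1 fell by 0.79 on the log2 scale. Unc13c and Doc2b, which act in vesicle priming and fusion, were the 2 higher genes (0.67 and 0.63).

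Homer1, a scaffold that links glutamate receptors to internal calcium stores, had 181 to 269 CPM (median 200.4) in air and 152, 112, 134, 120.3 and 116 CPM in no nicotine 1 to 5, with no overlap and a change of -0.76 ± 0.14 (log2, SE, adjusted p = 0.00165 by edgeR). Homer2, Dlgap1 and Dlgap2, scaffolds of the same density, fell by 0.54, 0.58 and 0.61. The postsynaptic list had 5 called genes without no nicotine 2 or 3, and 6 without no nicotine 5. The release list had 10 called genes without air 5 or air 6, 9 without no nicotine 2 and 7 without no nicotine 3.

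Glutamate receptor genes were lower in 8 of 25 cases and higher in 1. Grin2a, the NMDA receptor subunit that increases as cortical synapses mature, had 9.22 to 16.0 CPM (median 13.6) in air and 7.25, 5.39, 6.71, 5.08 and 6.36 CPM without nicotine, with a change of -1.08 ± 0.15 (log2, SE, adjusted p = 0.000802 by edgeR). Grin1, the obligatory NMDA subunit, fell by 0.32, the AMPA subunit Gria3 by 0.47 and the presynaptic autoreceptor Grm2 by 1.35. The list had 5 called genes without air 4, 5 or 6 or no nicotine 2, and 4 without no nicotine 3 or 5.

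GABA receptor and chloride transport genes were lower in 5 of 19 cases, among them Gabbr2 (-0.55) and Gabra3 (-0.20), and higher in 2, one of which was the chloride importer Slc12a2 (0.33). Of the 19, 3 passed without air 5 or no nicotine 2, and 4 without no nicotine 3 or 5. The medians of the glutamate and GABA receptor lists were -0.15 and -0.16.

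Ion channel genes were among the lists with the largest share of lower genes. Of 40 potassium and HCN channel genes 17 were lower and 0 higher (median -0.28), and of 22 sodium and calcium channel genes 12 were lower and 1 higher (median -0.31). The shares among all genes were 7.03% lower and 5.03% higher. Kcnj9, a subunit of the inwardly rectifying channels that receptors open through G proteins, was lower without nicotine, at 33.3 ± 2.46 CPM (SD, n = 5) against 55.7 ± 9.3 CPM in air (SD, n = 6). Its partners Kcnj3 and Kcnj6 fell by 0.79 and 0.92, the silent subunit Kcnv1 by 0.99, the M-current gene Kcnq3 by 0.61 and Kcnh7 by 1.30, the last with 5.83% of its windows in other coding transcripts.

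Scn8a, the sodium channel of the axon initial segment, fell by 0.43, and the calcium channel genes Cacna1b and Cacna2d1 by 0.31 and 0.51. Cacna2d2, an auxiliary subunit of the same family, was higher without nicotine, at 92.7 ± 21.7 CPM (SD, n = 5) against 45.6 ± 6.61 CPM in air (SD, n = 6), with a change of 1.02 ± 0.15 (log2, SE, adjusted p = 0.000841 by edgeR). Without no nicotine 2, 3 or 5 the list of sodium and calcium channels had 6, 7 and 8 called genes, and 8 without air 6.

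Receptors for acetylcholine include the targets of nicotine. Of 14 genes 2 were higher and 2 lower. The muscarinic receptors Chrm1 and Chrm3, which cortical pyramidal neurons carry, fell by 0.47 and 0.78, and Chrm1 had 244 to 268 CPM (median 262) in air and 215, 159, 159, 205 and 192 CPM without nicotine. Chrm5 rose by 1.40, on 10 to 75 counts per library. Of the 9 nicotinic subunits 1 was called, Chrna2, which was higher (1.59 ± 0.318 CPM in air, SD, n = 6, and 3.31 ± 0.773 CPM without nicotine, SD, n = 5) and passed in 5 of the 11 fits that left out a library. Chrnb3, named after its values were seen, had the lowest log2 fold change of the list, -1.29, and did not pass (edgeR adjusted p = 0.0354).

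Chrna4 and Chrnb2, which form the main high-affinity nicotinic receptor of the brain, and Chrna7 were not called, with log2 fold changes of -0.26, 0.21 and -0.13. Without air 6, or without no nicotine 2 or 3, 2 of the 14 genes passed. Receptors for monoamines and peptides were lower in 8 of 29 cases and higher in 3. Adra1d, an alpha-1 adrenergic receptor, had 17.8 to 44.9 CPM (median 31) in air and 13.6, 6.47, 4.87, 6.57 and 5.08 CPM without nicotine, with a change of -2.05 ± 0.36 (log2, SE, adjusted p = 0.00124 by edgeR), and it overlaps Gm14285 on the opposite strand. The somatostatin receptors Sstr3 and Sstr4, the beta-1 adrenergic receptor Adrb1 and the corticotropin-releasing hormone receptor Crhr1 fell by 0.73, 0.91, 0.66 and 0.79.

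Of 15 genes of neurotrophins, GDNF and their receptors, 3 were higher, among them Ngfr and Ret, and 3 lower, namely Bdnf, Sort1 and Gfra2. Bdnf, the neurotrophin that cortical excitatory neurons release with activity (chromosome 2, 109514857 to 109567204 in mm9), had 35.9 to 47.6 CPM (median 42.9) in air and 25.5, 18.5, 23.6, 25.3 and 22.04 CPM in no nicotine 1 to 5. No exposed library reached the lowest air library, with a change of -0.89 ± 0.11 (log2, SE, adjusted p = 0.000802 by edgeR). Sort1, which sorts BDNF into vesicles, fell by 0.51. Gdnf was at 1.29 ± 0.479 CPM (SD, n = 6) in air and 2.23 ± 0.651 CPM (SD, n = 5) without nicotine and did not pass (edgeR adjusted p = 0.0314). The list of qPCR genes (Chat, Gal, Ngfr, Bdnf, Adra1d, Tbr1 and Gdnf) had 3 members higher and 3 lower, and because it was picked with these libraries known it is no independent evidence of direction.

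Immediate early genes, which neurons switch on within minutes of activity, were lower in 5 of 22 cases (22.7%, beside 7.03% of all genes) and higher in 0. Their median was -0.42. Besides Homer1 the lower genes were Egr1, Egr3, Egr4 and Nr4a2. Egr3 had 68.3 to 117 CPM (median 86.0) in air and 65.5, 38.2, 49.6, 39.2 and 38.1 CPM without nicotine, with a change of -0.93 ± 0.20 (log2, SE, adjusted p = 0.00349 by edgeR). Nr4a2, which is also a marker of deep cortical cells, was lower without nicotine, at 20.7 ± 12.8 CPM (SD, n = 5) against 66.9 ± 23.5 CPM in air (SD, n = 6), and Egr1 was at 248 ± 37.1 against 388 ± 84.3 CPM (SD, same n), each with overlap between the groups.

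Fos and Arc, the most used markers of recent activity, varied widely between the air libraries and were not called. Arc had 85.1 to 417 CPM in air and 60.9 to 131 CPM without nicotine, and Fos had 18.3 to 69.5 and 26.3 to 51.6 CPM. Depending on the library left out, 1 to 5 genes of this list passed, with 1 without no nicotine 5, 2 without air 5 or no nicotine 2, 3 or 4, and 3 without air 2, 4 or 6 or no nicotine 1.

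Axon guidance genes changed in both directions, with 4 higher and 8 lower of 48 (25% called, beside 12.1% of all genes). Ntn1, Efnb3 and Sema6a were higher (0.60, 0.65 and 0.41), and Epha4, a receptor for ephrins, was lower without nicotine, at 123 ± 12.1 CPM (SD, n = 5) against 199 ± 27.6 CPM in air (SD, n = 6). In this list 6 genes passed without air 5 or air 6, 5 without no nicotine 2 or no nicotine 5, and 4 without no nicotine 3. In the circadian list Clock (-0.31), Cry2 (-0.25) and Npas2 (-0.52) were lower of 16 genes, with 5 called without air 1 and 1 without no nicotine 2 or 3.

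**Figure D4:**
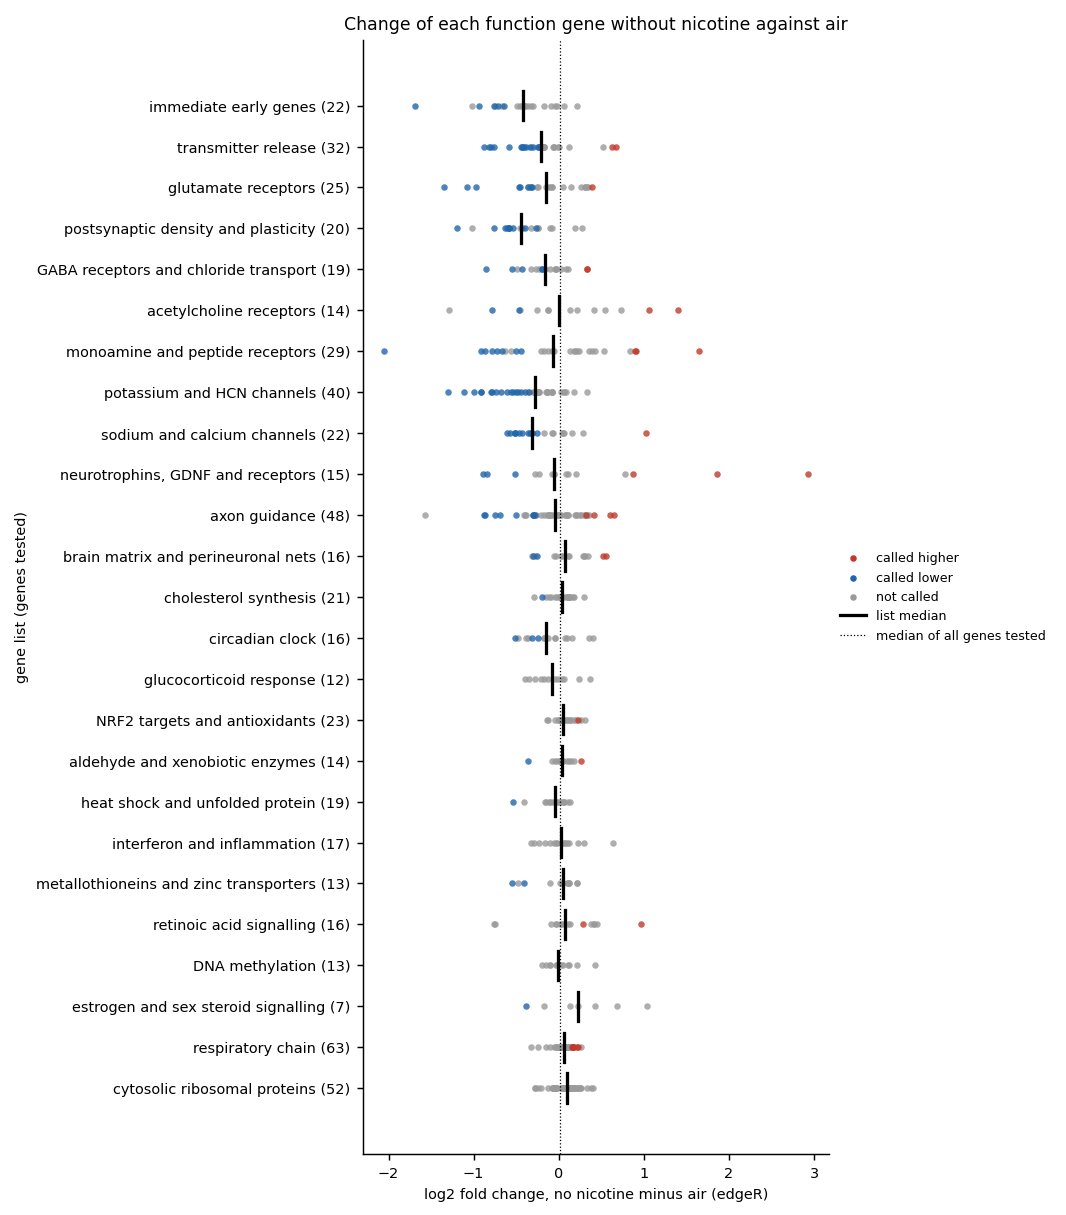
Log2 fold change without nicotine against air (x axis, edgeR) of each tested gene of the 25 function lists (rows, with the number of genes tested). Red and blue points were called higher and lower, grey points were not called, and the thick black line is the list's median. Blue points gather in the lists of transmitter release, the postsynaptic density, glutamate receptors and ion channels, while the lists of stress, inflammation, DNA methylation and ribosomal proteins hold few coloured points or none.

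In 3 lists of genes that respond to inhaled irritants and to stress, 4.35%, 14.3% and 5.26% of the genes were called, beside 12.1% of all genes. Of 23 targets of NRF2 and antioxidant genes, 18 had a positive sign, and Sod1 was called (28.5 ± 0.876 CPM in air, SD, n = 6, and 33.5 ± 2.52 CPM without nicotine, SD, n = 5), and Hmox1 and Nqo1 had log2 fold changes of -0.13 and 0.26 without passing. Of 14 enzymes of aldehydes and xenobiotics Aldh9a1 was higher (0.26) and Ahr, the receptor for aromatic pollutants, lower (-0.37), while Cyp1b1, a target of that receptor, was not called (0.05) and Cyp1a1 had at most 6 counts in any library. Of 19 heat shock and unfolded protein genes Atf6 was lower (-0.54).

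None of 17 interferon and inflammation genes (median 0.03), of 12 glucocorticoid response genes (median -0.08), of 13 DNA methylation genes (median -0.01) or of 52 cytosolic ribosomal proteins (median 0.09) was called by edgeR. The smallest edgeR adjusted p in the first 3 of these lists were 0.0583 for H2-D1, 0.0143 for Nr3c1, the glucocorticoid receptor, and 0.135 for Dnmt3a. The ribosomal genes ranged from 0.066 RPKM (Rpl24) to 319 RPKM (Rpl8) in air. Many were at low levels, such as Rpl18 (0.15) and Rps18 (0.25), so the lack of calls says little about them. Of 63 respiratory chain genes 6 were higher and 0 lower (9.52% called, beside 12.1% of all genes), with small changes such as Sdhc (0.22) and Atp5g3 (0.23). Of the 63, 2 passed without no nicotine 2 or 5 and 3 without air 6 or no nicotine 3 or 4.

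In the remaining lists Slc39a10 and Slc30a4 fell by 0.54 and 0.41 of 13 metallothioneins and zinc transporters, Crabp1 and Rxra rose by 0.97 and 0.29 of 16 retinoic acid genes, Hsd17b7 fell by 0.19 of 21 cholesterol genes, and the progesterone receptor Pgr fell by 0.38 of 7 sex steroid genes. Several widely used genes, such as Hmgcs1, Rpl26 and Ndufs5, had 0 to 3 counts in every library, so that a gene listed at 0 in this table need not be silent. The single calls of the NRF2, heat shock, cholesterol and sex steroid lists and both calls of the retinoic acid list were lost in at least 1 of the 11 fits that left out a library.

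Genes called lower, but not those called higher, stood apart in a property that no list used. Genes called lower spanned a median of 59610 bases of the mm9 genome, against 22790 for genes called higher and 22740 for genes not called. With the genes split into 4 equal bins by span, 14.2% of the longest bin were called lower and 4.94% higher, against 3.92% and 5.22% in the shortest bin. By level, 21.8% of the bin with the highest mean CPM were called against 5.12% of the lowest. The lower calls rose over the 4 bins from 72 to 132, 248 and 614, and the higher calls were 122, 201, 229 and 211. Of the chromosomes, X had the highest share of called genes, 16.7%, with 58 higher and 28 lower. These shares describe genes, which are not independent of each other, and the part of level in the difference by span was not tested.

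**Figure D5:**
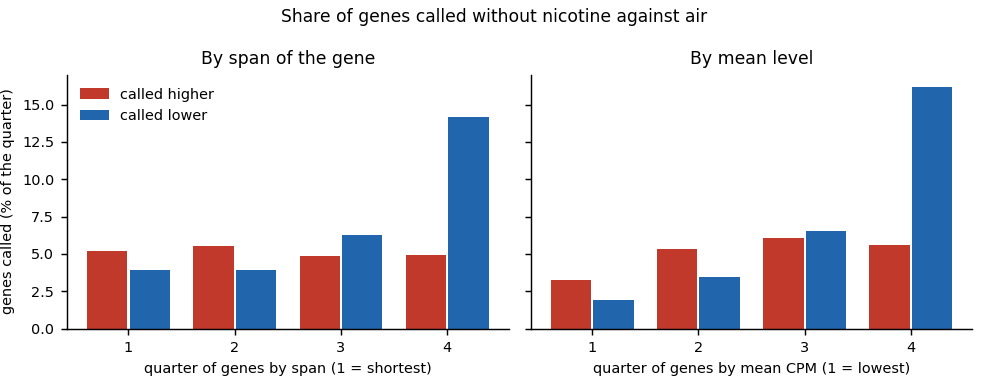
Genes called higher (red) and lower (blue) as a percentage of each of 4 equal bins of the genes tested (y axis), binned by span in the genome (left) or by mean CPM over the 11 libraries (right). The blue bars rise to 14.2% in the bin with the longest span, while the red bars stay between 4.85% and 5.50%.

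Aerosols without and with nicotine were compared within the run to ask what the absence of nicotine changed. Of 15158 genes 0 (0%) were called by edgeR, with 1266 at an unadjusted p below 0.05 and a smallest adjusted p of 0.575, and DESeq2 also called 0. Chat was at 17.8 CPM on average without and 13.3 CPM with nicotine, Mbp at 6642 and 7400 CPM, Slc17a7 at 1388 and 1644 CPM, and Kctd16 at 8.71 and 9.79 CPM. Both groups share the air controls, so their changes against air are not independent. Egr1 had a log2 difference of -0.61 between both aerosols, lower without nicotine, and an unadjusted p of 0.00118 (adjusted 0.575, edgeR), and the median log2 fold change of the immediate early genes against air was 0.03 with nicotine and -0.42 without it.

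The change was also set against that of the run with M in its titles, which has its own air controls. Of 15105 genes tested in both, 0 (0%) differed in their change at an edgeR adjusted p of 0.01, with 742 at an unadjusted p below 0.05, and DESeq2 also gave 0. Simulated counts of the same size had a difference of 1 on the log2 scale recovered for 78% of the changed genes, so smaller differences may have been missed. The median of the cholinergic list was 2.15 in this run and 1.60 in the other, that of the pan-excitatory list -0.91 and -1.03, and that of the myelin list 0.57 and 0.61.

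Some lists had medians farther apart. The choroid plexus list was at 0.36 in this run and 1.57 in the other, the meninges list at 0.37 and -0.21, and the immediate early genes at -0.42 and -0.20. Gfap had log2 fold changes of 0.50 and -0.08, a difference of 0.58 ± 0.21 (SE, unadjusted p = 0.00803, adjusted p = 0.945 by edgeR), and Epha4 of -0.69 and -0.32. None of these differences passed, and a p above the threshold does not show that the changes were equal.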

How the data were processed

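RNA-Seq libraries of frontal cortex were compared between 6 air exposed and 5 no nicotine offspring of the run whose titles carry no M. The deposited values were raw read counts per gene made by the authors, who demultiplexed reads with bcl2fastq, mapped short single reads to the mm9 transcriptome with Bowtie, removed PCR duplicates with SAMtools and counted with HTSeq, per the labels and the study's methods. Removing duplicates of single reads limits the counts that an abundant gene can reach, so its fold changes may be understated. The strand setting is not given in the sources used here. Tables normalized by the authors with DESeq2 were not used, and of 34 count columns 1 matched no label and was left out. The authors left an outlying sample of each sex out of their own analysis.

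Genes with a CPM sum of at least 5 over the 16 libraries of the run were kept, counts were TMM normalized, and all 3 groups were fitted with edgeR 4.0.16 (quasi-likelihood, R 4.3.3), with Benjamini-Hochberg adjusted p below 0.01 as a call, after the study's threshold. The difference between runs was an interaction in a fit of 33 libraries. Log2 CPM used a prior count of 1. limma 3.58.1, DESeq2 1.42.0, other normalizations and filters, a replicate block, a covariate and leave-one-out fits were alternatives. In simulated counts of 15158 genes, changes of 0.5 on the log2 scale were recovered for 58.5% of 200 genes and changes of 1 for 88%, with 0 false calls. No pair of libraries of 1 group agreed within sampling noise (chi-square per degree of freedom 3.998 to 26.77 over 25 pairs). Motifs and figures were made with Python 3.11.15, pandas 2.3.3, numpy 2.4.6 and matplotlib 3.10.9.

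The members and gene lists were chosen with earlier results of these data known. Named genes were the 10 higher and 10 lower calls with the smallest p, the 5 higher and 5 lower calls with the largest change at 1 CPM or more and no overlap, up to 4 calls of each list (or its member with the smallest p), the first gene of each marker list and the qPCR genes. Lhx8, Ache, Slc30a3, Nrgn, Cnp, Calb2, Npy, Sst, Pvalb, Klk6, Opalin, Unc13c, Doc2b, Kcnj3, Kcnj6, Chrna4, Chrnb2, Chrna7, Ret, Gfra2, Egr4, Fos, Arc, Hmox1, Nqo1 and Cyp1b1 were added after their values were seen. Some genes that the rule names are not reported here.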

Additional observations from a re-analysis of the deposited data

Results flagged for a closer look

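A library stood apart from the rest of its group, by the gap to its nearest neighbour as a share of the group's range, in 27 of 388 sets of values (6.96%), where chance gives about 1 in 20. No nicotine 1 was the high value for Adra1d (13.56 CPM), Grm2 (32.75), Hkdc1 (5.132), Ovol2 (0.8961) and Tcap (1.833), all of them genes that were lower without nicotine, and for the summed endothelial and pericyte list (1621 CPM). No nicotine 1 thus had 6 of the 27.

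Air 2 was high for Rorb (105.8 CPM), Cux2 (72.44), Adrb1 (44.84) and Gal (0.3573), and low for Xist (119.4 CPM). Air 3 was high for Ttr (268.1 CPM), Clic6 (21.67) and the choroid plexus sum (357.8), and low for Hivep3 (31.25). No nicotine 3 was high for Ttr (218.8 CPM) and the choroid plexus sum (325.1), and no nicotine 2 was low for Ahr (12.16 CPM), H2-D1 (10.74) and its total count (19684173).

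Among the others, air 4 was high for the meningeal collagen gene Col1a1 (95.42 CPM) and for Ndufb5 (106.1), air 5 was high for Eomes (2.92) and low for the NRF2 sum (1492), and air 1 was high for Sema6a (61.02). No nicotine 4 was high for 2900055J20Rik (3.514) and no nicotine 5 for the GABA receptor sum (4434).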

How the results depend on the processing

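The count of genes called without nicotine against air was 1829 and stayed within 1.5 times of it with DESeq2 (2591), limma-voom (1782), DESeq2 size factors (1828), upper quartile scaling (1797), no filter (1731), a stricter filter (1805) and the 11 libraries alone (1637). It ranged from 823 to 2505 when 1 library was left out. Of the 125 called named genes, 89 passed in all 11 of these fits. Cplx3, Npas2, Hapln2 and Crabp1 passed in 2 of the 11, and Tnr, Hsd17b7, Pgr and Rxra in 3. Baiap3, Cux2, Egr1, Isl1, Lhfpl3, Nr4a2, Rasgrf2 and Tac1 passed in 4. With the replicate number as a block the count of called genes was 736, of which 717 were among the 1829. The labels' numbers did not pair the samples: the correlations of same-numbered deviations from air to no nicotine were -0.167, -0.122, 0.266, 0.0063 and 0.173, and only numbers 3 and 5 were best matched to themselves. With the cortical neuron score as a covariate the count of called genes was 0 (822 at an unadjusted p below 0.05). Of the 125 named genes called in the main fit, 15 then changed sign, none of them past the threshold. Their log2 values were then -0.32 for Baiap3, 0.30 for Cplx3, 0.11 for Cux2, 0.016 for Dlgap2, -0.010 for Gad1, 0.25 for Hkdc1, -0.090 for Lhfpl3, -0.071 for Lhx6, 0.053 for Neurod2, 0.0048 for Npas2, 0.14 for Nr4a2, 0.0064 for Rims1, -0.021 for Sema6a, 0.058 for Slc17a7 and 0.057 for Tbr1, and the cause was not tested. The comparison with nicotine and that between the runs gave 0 calls in every alternative run, with 771 to 2125 and 567 to 1027 genes at an unadjusted p below 0.05 when 1 library was left out (both sets of fits were added after seeing the data). Leaving out a library of the other run that went against its label also gave 0, with 731 at an unadjusted p below 0.05. With 6 and 5 libraries, changes of 0.5 on the log2 scale were recovered for 58.5% of the changed genes in the simulated counts. Smaller changes were not simulated, and 1096 of the 1829 calls in the data were below 0.5.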
